A study of Mus musculus with 6 samples.

Results

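The DnaJ (HSP40) family comprised 44 of the 18193 genes measured on the liver arrays. Members were the genes whose annotated symbol starts with Dnaja, Dnajb or Dnajc and a number, Dnajb4 itself included, and they were read by 104 of the 45101 probe sets in the table. Each probe set pools several short oligonucleotides, and only those annotated with a single gene symbol were taken. There were 4 DnaJ A, 13 DnaJ B and 27 DnaJ C genes, of which 16 had 1 probe set and 28 had 2 or more, up to 6. The arrays held liver RNA of HLJ1 knockout (Dnajb4-/-) mice (n = 3) and of wild-type (Dnajb4+/+) mice (n = 3). All 6 were C57BL/6 mice with no treatment named, labelled male and aged 6 to 8 weeks, with Dnajb4 deleted in the knockout by gene targeting in embryonic stem cells. HLJ1 is the protein that Dnajb4 encodes. The comparison asks how the relatives of HLJ1 are expressed in livers of the knockout genotype.

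DnaJ proteins carry a J domain, which stimulates the ATPase of HSP70 chaperones and so drives the capture of unfolded clients. Class A members also have a glycine and phenylalanine rich stretch and a zinc finger, class B members such as HLJ1 have the stretch without the zinc finger, and class C members share only the J domain and often serve a single compartment or client. In hepatocytes, which secrete most plasma proteins, DnaJ proteins act in the cytosol, the endoplasmic reticulum and the mitochondria.

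The label of liver was checked by 7 hepatocyte markers, Alb, Ttr and Apoa1 among them, whose summed level was 98818 to 99567 in Dnajb4-/- and 100521 to 101123 in Dnajb4+/+ arrays. By the test described below, 2 of them were higher in Dnajb4-/- arrays (Apob and Hnf4a), 1 was lower (Tat) and 4 did not pass. The genotypes also differed outside the chaperones. Xist, the RNA that silences an X chromosome in female cells, read 14.3 to 17.1 in Dnajb4-/- and 364 to 402 in Dnajb4+/+ arrays, although all mice are labelled male. Whether the arrays labelled Dnajb4+/+ hold RNA of female or pooled mice, or whether labels were exchanged, was not tested. Every difference is given by the genotype labels, and its sign would turn if those were exchanged. The summed level of 3 Y-linked genes was 97.3% to 104% of the Dnajb4-/- mean in Dnajb4-/- arrays and 84.6% to 94.1% of it in Dnajb4+/+ arrays. None of the 3 passed the test. In every array Kdm5d (24.6 to 26.4) and Uty (18.9 to 26.3) read below the median gene level of 43.5. Eif2s3y read above that level in every array, at 77.4 to 81.3 in Dnajb4-/- and 62.6 to 72.3 in Dnajb4+/+ arrays. All 8 measured genes known as higher in female liver were lower in Dnajb4-/- arrays (summed level 251 to 271, against 7479 to 7916 in Dnajb4+/+). Among 7 male-high genes, 6 were higher in Dnajb4-/- arrays (summed level of the 7 37153 to 37885, against 25766 to 26083 in Dnajb4+/+). Of the markers of Kupffer cells, the resident macrophages, 7 of 8 were lower (summed level 3740.0 to 3918 in Dnajb4-/- and 4782 to 5053 in Dnajb4+/+ arrays), as were 9 of 10 of skeletal muscle (347 to 359 in Dnajb4-/-, against 740.3 to 801 in Dnajb4+/+) and 4 of 6 of endothelium (1027 to 1089 in Dnajb4-/-, against 1195 to 1233 in Dnajb4+/+). The ratio of the 3' to the 5' control probe set, a sign of RNA integrity, was 1.43 to 1.48 in Dnajb4-/- and 1.16 to 1.19 in Dnajb4+/+ arrays for Gapdh. For Actb it was 3.10 to 3.22 in Dnajb4-/- and 2.59 to 2.68 in Dnajb4+/+ arrays. Each of these measures separated the genotypes in all 6 arrays, so their part in the DnaJ results cannot be told apart from that of the genotype. P-values measure the spread between arrays, and across genes the arrays of a genotype correlated at 0.998 to 0.999 (Pearson's r) and those of different genotypes at 0.993 to 0.995.

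The test called 5 DnaJ genes higher and 4 lower in Dnajb4-/- livers, and left 35 uncalled. A gene passed at an adjusted p under 0.05 from limma's moderated test, after Benjamini-Hochberg adjustment over all 18193 genes. The 9 that passed were 20.5% of the members, beside 14.7% of all genes. The higher genes were 11.4% of the members beside 5.09% of all genes, and the lower ones 9.09% beside 9.57%. These shares of all genes include dim genes, whereas 34 members lay above the median gene level. With dim genes left out of the fit, 35.7% of the remaining genes passed. Of the members, 4 were then higher and 4 lower, a smaller share of those 34. The family was thus not shown to be called more often than genes of like signal. With all genes in the fit, the higher members were Dnajb14, Dnaja4, Dnajb8, Dnajc3 and Dnaja1, and the lower ones were Dnajc15, Dnajb12, Dnajc22 and Dnajc8. In whole liver, fewer cells of a type and less RNA per cell cannot be told apart, for these and all other differences.

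The differences were small. No DnaJ gene differed by 2-fold, which 75 of all genes did, and the median size of the log2 difference was 0.07 over the members and 0.08 over all genes. The log2 difference, Dnajb4-/- minus Dnajb4+/+ throughout, had a median of -0.03 over the members and 0.01 over all genes, with 16 members above 0 and 28 below. The count above 0 was 19 after quantile normalization and 22 after centring on brighter probe sets. The genotypes did not overlap for 20 members (45.5%, beside 35.5% of all genes). In 7 of them all Dnajb4-/- arrays were above (16.1% of all genes) and in 13 all were below (19.4% of all genes). The members that did not pass lay between -0.20 for Dnajc9 and 0.17 for Dnajb11, and their 95% intervals reached from -0.44 to 0.37. At an unadjusted p under 0.05 the count was 14 (31.8%, beside 29.5% of all genes).

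**Figure D1:**
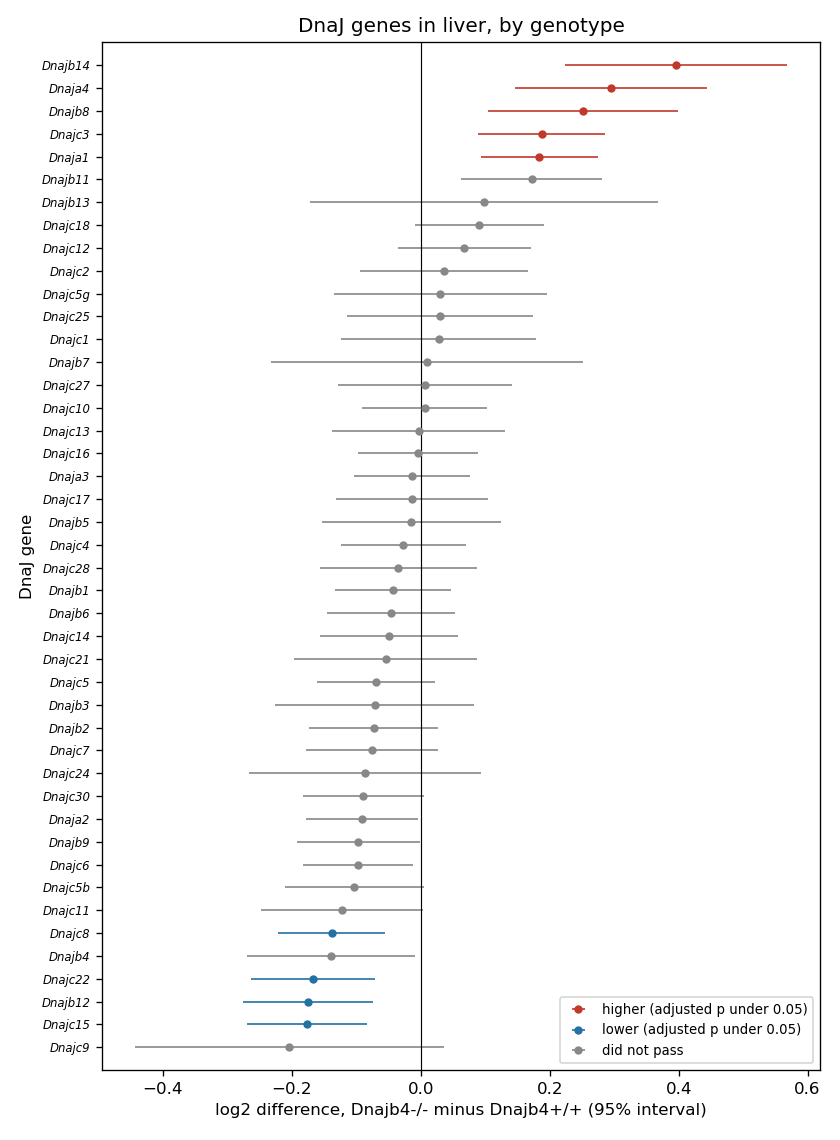
The log2 difference in normalized intensity, Dnajb4-/- minus Dnajb4+/+ (x axis), of the 44 DnaJ genes (y axis, in order of size), with limma's 95% intervals (n = 3 arrays per genotype). The 5 genes that passed as higher lie at 0.18 to 0.40 and the 4 that passed as lower at -0.14 to -0.18, while most intervals cross 0.

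The targeted gene was measured first. Dnajb4, averaged over its 3 probe sets, read 117, 125 and 130.0 in Dnajb4-/- livers, against 132, 143 and 135 in Dnajb4+/+ livers. All Dnajb4-/- arrays were lower, but by little. The log2 difference was -0.14 (standard error 0.06), with an adjusted p of 0.145 by limma, which did not pass. Only 1 of its probe sets passed. Probe set 1451177_at read 467, 479.9 and 453 in Dnajb4-/- livers, against 588, 566 and 612 in Dnajb4+/+ livers, a log2 difference of -0.34 (standard error 0.05) with an adjusted p of 0.00768 by limma over all probe sets. All 3 Dnajb4-/- arrays were below all Dnajb4+/+ arrays, and the level fell by 20.7%. The others, 1431734_a_at at -0.05 and 1439524_at at -0.04, were dimmer and overlapped between genotypes. Probe set 1431734_a_at read 107 to 110 in Dnajb4-/- and 107 to 116 in Dnajb4+/+ livers. Probe set 1439524_at read 31.7 to 45.0 in Dnajb4-/- and 34.8 to 45.4 in Dnajb4+/+ livers, with a standard error of 0.15. The gene-level average gives each probe set equal weight. Set against the mean of the others, 1451177_at had a log2 difference of -0.29 (95% interval -0.54 to -0.04), with an adjusted p of 0.154 by limma over all such contrasts, so that the probe sets were not shown to differ. That contrast passed with an offset of 16 (adjusted p = 0.0358). The gene-level difference passed with the probe set of highest signal alone (-0.34, adjusted p = 0.00500), with the linear mean of probe sets (-0.27, adjusted p = 0.00476) and with an offset of 16 (-0.13, adjusted p = 0.0442). The deleted part of the gene is not given in the sources used here, and a probe set outside it does not check the genotype.

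The promoter windows of the family were searched for letters that heat shock factors, the unfolded protein response and sterol-regulated factors are known to use. RefSeq (GRCm38.p6) gave windows of 300 bases, from 250 before the start site to 50 after, for 36 of the 44 members. The heat shock pairs GAANNTTC and TTCNNGAA were read on both strands. A gene can have several windows, and the 36 members had 49. GAANNTTC was present in 7.86% of all 32851 promoters and in 6 of the 49 windows, of 5 members (Dnaja1, Dnaja4, Dnajb6, Dnajc5g and Dnajc27). TTCNNGAA was present in 8.52% of all promoters and in 4 of the 49 windows, of 3 members (Dnajb4, Dnajb6 and Dnajc10). A match is a description of the letters and not a site. A window of Dnajb4 (chr3:152193796-152194095, minus strand) and that of Dnaja4 (chr9:54699309-54699608, plus strand) are shown 5' to 3' with the pairs in capitals, since one belongs to the targeted gene and the other to the class A gene with the largest difference. The pair of Dnajb4 begins 14 bases before the start site of this window, and those of Dnaja4 begin 90 and 52 bases before it.
Dnajb4: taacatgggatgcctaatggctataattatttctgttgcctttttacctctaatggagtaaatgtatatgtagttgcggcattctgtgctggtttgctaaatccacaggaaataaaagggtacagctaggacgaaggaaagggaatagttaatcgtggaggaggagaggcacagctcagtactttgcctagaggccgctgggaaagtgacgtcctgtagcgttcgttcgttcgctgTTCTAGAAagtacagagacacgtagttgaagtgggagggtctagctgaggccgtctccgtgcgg
Dnaja4: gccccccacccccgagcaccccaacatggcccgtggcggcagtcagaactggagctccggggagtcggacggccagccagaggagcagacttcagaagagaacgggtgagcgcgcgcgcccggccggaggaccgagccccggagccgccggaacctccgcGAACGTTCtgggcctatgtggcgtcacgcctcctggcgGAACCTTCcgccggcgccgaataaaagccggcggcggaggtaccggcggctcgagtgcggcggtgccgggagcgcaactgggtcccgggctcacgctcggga

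The closest class B relatives of HLJ1 did not pass the test. Dnajb1, the main stress-inducible cytosolic HSP40, read 399, 396 and 399 in Dnajb4-/- livers, against 421, 399 and 409 in Dnajb4+/+ livers. Its log2 difference was -0.04 (95% interval -0.13 to 0.05, adjusted p = 0.505 by limma), and no Dnajb4-/- array was above a Dnajb4+/+ array, though the nearest arrays both rounded to 399. After quantile normalization its difference was 0.0016. Dnajb5, another cytosolic relative, read 50.0, 48.9 and 53.0 in Dnajb4-/- livers, against 52.9, 53.2 and 47.5 in Dnajb4+/+ livers. The genotypes overlapped and the difference was -0.01 (95% interval -0.15 to 0.12), turning to 0.0029 after quantile normalization and 0.02 after centring on brighter probe sets. Dnajb13, known from sperm flagella and cilia, read 40.4, 31.6 and 30.7 in Dnajb4-/- livers, against 31.1, 34.8 and 29.6 in Dnajb4+/+ livers. The genotypes overlapped here too (0.10, 95% interval -0.17 to 0.37), and without Dnajb4-/- replicate 1, the highest of the arrays, the difference was -0.03.

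Of the cytosolic class A genes, 2 of 3 were higher and none was lower (median 0.18, beside 0.01 over all genes). Dnaja4, a farnesylated HSC70 co-chaperone, read 44.3, 39.5 and 46.0 in Dnajb4-/- livers, against 36.2, 34.3 and 35.1 in Dnajb4+/+ livers. Every Dnajb4-/- array was above every Dnajb4+/+ array, and the log2 difference was 0.30 (standard error 0.06, 1.23-fold, adjusted p = 0.0232 by limma). Of its 3 probe sets, 2 passed as higher. Probe set 1418591_at read 72.4, 62.1 and 62.6 in Dnajb4-/- livers, against 51.7, 47.8 and 54.8 in Dnajb4+/+ livers (0.35, adjusted p = 0.0329). Probe set 1434196_at read 56.6, 57.1 and 69.3 in Dnajb4-/- livers, against 46.1, 41.4 and 44.0 in Dnajb4+/+ livers (0.47, adjusted p = 0.0181). The remaining one, 1418592_at, overlapped at 17.4 to 22.4 in Dnajb4-/- and 17.9 to 20.4 in Dnajb4+/+ livers (0.06, 95% interval -0.19 to 0.31). Dnaja4 lay below the median signal of all genes, and of the 6 fits that left out 1 array it passed in 1, without Dnajb4-/- replicate 2 (adjusted p = 0.010), with an adjusted p of up to 0.0768 in the others.

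Dnaja1, an abundant cytosolic co-chaperone of HSC70, read 2697, 2673 and 2580.4 in Dnajb4-/- livers, against 2366, 2294 and 2339.7 in Dnajb4+/+ livers. All Dnajb4-/- arrays were higher, with a log2 difference of 0.18 (standard error 0.04, 1.14-fold, adjusted p = 0.0216 by limma). The call rested on 1 of its 3 probe sets. Probe set 1459835_s_at read 1999, 1915 and 1635 in Dnajb4-/- livers, against 1406, 1285 and 1322 in Dnajb4+/+ livers, a difference of 0.46 (standard error 0.08, adjusted p = 0.0150). The other probe sets were at 0.08 (1416288_at, 95% interval -0.02 to 0.19) and 0.00 (1460179_at, 95% interval -0.10 to 0.11). The suffix _s_at marks a probe set that can read several transcripts, and without probe sets of that kind (_s_at, _a_at and _x_at) the gene was at 0.04 with an adjusted p of 0.535. Against the mean of the others 1459835_s_at was higher by 0.42 (95% interval 0.19 to 0.65, adjusted p = 0.0558), which did not pass, except with an offset of 16 (adjusted p = 0.0127) and without Dnajb4-/- replicate 3 (adjusted p = 0.0423). Dnaja2, the third gene of the group, read 312, 304 and 306 in Dnajb4-/- livers, against 326, 323 and 333 in Dnajb4+/+ livers. Its arrays did not overlap but the difference of -0.09 (95% interval -0.18 to -0.00) had an adjusted p of 0.152. Of its 4 probe sets, 1417183_at passed as lower, with 478, 463 and 446 in Dnajb4-/- livers, against 549, 513 and 525 in Dnajb4+/+ livers (-0.20, adjusted p = 0.0487).

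**Figure D2:**
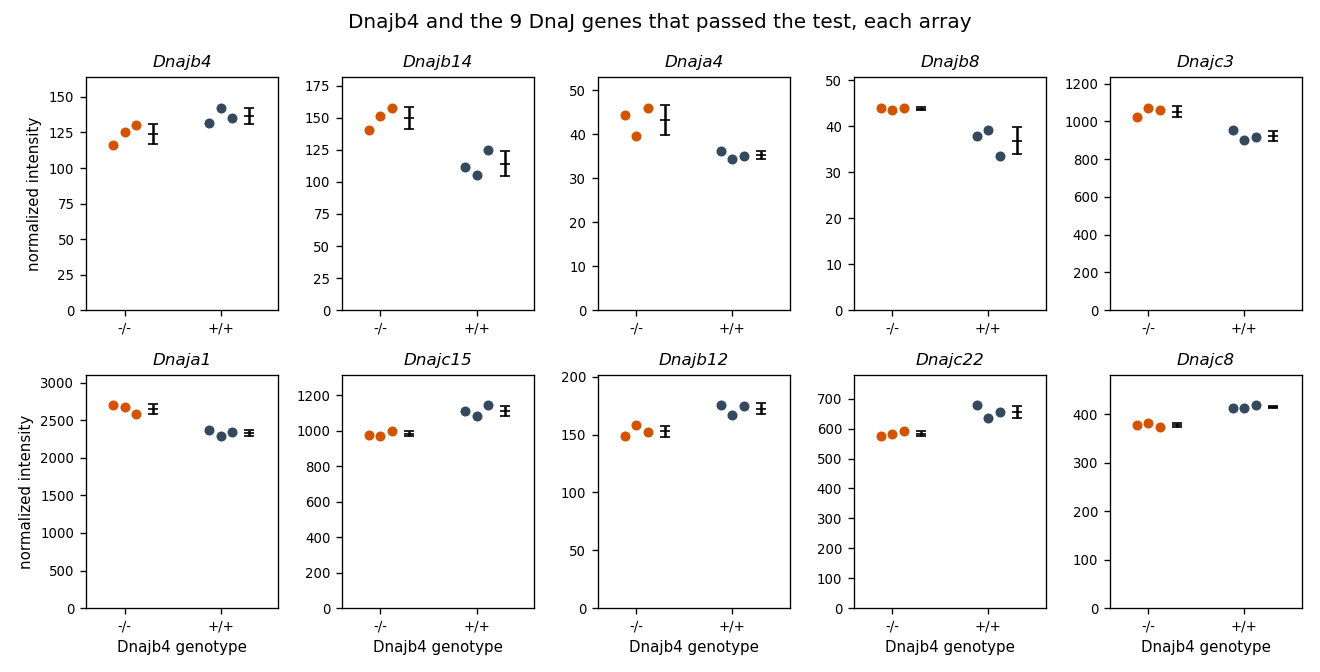
Normalized intensity (y axis, linear, from 0, with its own scale in each panel) of Dnajb4 and the 9 DnaJ genes that passed the test, in each array of Dnajb4-/- (orange, left) and Dnajb4+/+ livers (dark, right), with means and SDs in black (n = 3 per genotype). No panel has overlapping genotypes, and the gaps are small beside the levels, as for Dnaja1 at 2580.4 or more in Dnajb4-/- and 2366 or less in Dnajb4+/+ livers.

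Among the 11 DnaJ genes of the endoplasmic reticulum, 2 were higher, 1 was lower and 8 did not pass (median 0.03). Dnajb14 had the largest difference of the family. It encodes a membrane protein of the endoplasmic reticulum whose J domain faces the cytosol and which takes part in the degradation of misfolded membrane proteins. It read 141, 151 and 158 in Dnajb4-/- livers, against 112, 106 and 125 in Dnajb4+/+ livers, with the lowest Dnajb4-/- array above the highest Dnajb4+/+ array. The log2 difference was 0.40 (standard error 0.07, 1.32-fold, adjusted p = 0.0135 by limma). Probe set 1430561_at read 179, 196 and 199.9 in Dnajb4-/- livers, against 135, 127 and 147 in Dnajb4+/+ livers (0.49, adjusted p = 0.00662). Probe set 1429468_at went the same way, with 111, 117 and 125 in Dnajb4-/- livers, against 92.5, 87.6 and 106 in Dnajb4+/+ livers (0.30, adjusted p = 0.0573). Dnajb14 passed in 5 of the 6 fits that left out 1 array, and without Dnajb4+/+ replicate 1 its adjusted p was 0.0513. By RefSeq, Dnajb14 lies on chromosome 3, as do Dnajb4 and Dnajc5b (-0.10, adjusted p = 0.184).

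Dnajb12, a paralog of Dnajb14 with the same place and topology, went the other way. It read 148, 158 and 152 in Dnajb4-/- livers, against 175, 167 and 175 in Dnajb4+/+ livers. The genotypes did not overlap, and the log2 difference was -0.17 (standard error 0.04, adjusted p = 0.0369 by limma). Both of its probe sets were below 0 (-0.18 and -0.17) and neither passed alone (adjusted p = 0.0778 and 0.226). Dnajb12 did not pass after quantile normalization nor in any of the 6 fits that left out 1 array (adjusted p = 0.0507 to 0.116).

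Dnajc3 encodes p58IPK, a lumenal co-chaperone of BiP that also restrains the stress kinase PERK. It read 1022, 1073 and 1061 in Dnajb4-/- livers, against 952, 900.2 and 918 in Dnajb4+/+ livers. All Dnajb4-/- arrays were higher (0.19, standard error 0.04, 1.14-fold, adjusted p = 0.0273 by limma). All 5 of its probe sets were above 0, at 0.05 to 0.37, and 2 passed. Probe set 1433887_at read 2553, 2626 and 2590.1 in Dnajb4-/- livers, against 2067, 1989.9 and 1974 in Dnajb4+/+ livers (0.37, adjusted p = 0.00312). Probe set 1419163_s_at read 756, 759 and 772 in Dnajb4-/- livers, against 679.7, 632 and 670.3 in Dnajb4+/+ livers (0.21, adjusted p = 0.0326). The probe set of highest signal was at 0.05, and with it alone the gene did not pass (adjusted p = 0.413).

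Dnajb11, another lumenal co-chaperone of BiP, missed the threshold narrowly. It read 869.9, 946 and 895 in Dnajb4-/- livers, against 809.6, 779 and 817 in Dnajb4+/+ livers. The genotypes did not overlap (0.17, standard error 0.05, adjusted p = 0.0507 by limma), and Dnajb11 passed after quantile normalization and after centring on brighter probe sets. Dnajb9, a co-chaperone of BiP that dampens the stress sensor IRE1 and a classical target of the unfolded protein response, was at -0.10 (95% interval -0.19 to -0.00, adjusted p = 0.163), with 1842, 1786 and 1884 in Dnajb4-/- livers, against 2014, 1944 and 1936 in Dnajb4+/+ livers. These 3 co-chaperones of BiP lay on both sides of 0.

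The endoplasmic reticulum stress element, CCAAT and CCACG with 9 bases between them, was read on both strands and was present in 0.119% of all promoters and in that of Dnajc3 alone among the 36 members with a window. The related element of ATTGG and CCACG with 1 base between them was present in 0.0365% of all promoters and in that of Dnajb11 alone among these members. Both windows are shown because the genes encode co-chaperones of BiP with differences above 0 and each holds one of the elements, in capitals. That of Dnajc3 (chr14:118937682-118937981, plus strand) has it 105 bases before the start site, and that of Dnajb11 (chr16:22857595-22857894, plus strand) from 7 bases after it.
Dnajc3: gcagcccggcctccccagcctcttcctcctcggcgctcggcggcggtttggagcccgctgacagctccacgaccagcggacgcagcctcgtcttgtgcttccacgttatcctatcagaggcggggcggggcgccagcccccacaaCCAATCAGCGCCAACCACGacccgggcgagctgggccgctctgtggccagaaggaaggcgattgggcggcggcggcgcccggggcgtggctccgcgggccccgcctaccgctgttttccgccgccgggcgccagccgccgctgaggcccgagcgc
Dnajb11: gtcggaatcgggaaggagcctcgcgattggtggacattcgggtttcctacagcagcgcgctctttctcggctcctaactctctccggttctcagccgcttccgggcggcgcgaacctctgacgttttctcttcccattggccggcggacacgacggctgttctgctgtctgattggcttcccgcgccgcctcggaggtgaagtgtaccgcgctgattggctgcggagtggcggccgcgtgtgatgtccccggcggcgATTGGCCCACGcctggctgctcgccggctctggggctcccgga

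The heat shock element of 3 units, GAANNTTC followed after 2 bases by GAA, contains both pairs. Read on both strands, it was present in 0.603% of all promoters and in 2 of the 49 member windows, both of Dnajb6. Dnajb6, which prevents the aggregation of polyglutamine proteins, was at -0.05 (95% interval -0.15 to 0.05) and overlapped between genotypes. The sterol element, TCAC and CCAC with 1 base between them, was present in 1.24% of all promoters and in no member. No window of Dnajb14 held any of these letters.

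Of the 5 Dnajb6-like class B genes, 1 was higher and 4 did not pass (median -0.05). Dnajb8, known from testis and as a suppressor of aggregation, read 44.0, 43.4 and 44.1 in Dnajb4-/- livers, against 38.0, 39.2 and 33.6 in Dnajb4+/+ livers. The arrays did not overlap and the log2 difference was 0.25 (standard error 0.06, 1.19-fold, adjusted p = 0.0384 by limma), with the Dnajb4-/- arrays less spread (SD 0.354) than the Dnajb4+/+ arrays (SD 2.97). The gene has 1 probe set, whose signal lay below the median of the probe sets with a single gene symbol.

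Of the 6 mitochondrial members, 1 was lower and 5 did not pass, with differences of -0.18 to -0.01 (median -0.06). Dnajc15, an inner membrane protein known to restrain complex I, read 977, 970.4 and 999.7 in Dnajb4-/- livers, against 1108, 1081 and 1142 in Dnajb4+/+ livers. All Dnajb4-/- arrays were lower, and the level fell by 11.5% (-0.18, standard error 0.04, adjusted p = 0.0274 by limma). Dnajc11, a partner of the complex that shapes the cristae, did not pass as a gene (-0.12, adjusted p = 0.181), with 34.2, 37.4 and 35.6 in Dnajb4-/- livers, against 38.5, 37.2 and 40.9 in Dnajb4+/+ livers. However, 2 of its 4 probe sets passed as lower. Probe set 1433880_at read 168, 169 and 171 in Dnajb4-/- livers, against 192, 203 and 228 in Dnajb4+/+ livers (-0.29, adjusted p = 0.0365). Probe set 1433881_at read 115, 128 and 125 in Dnajb4-/- livers, against 148, 138 and 154 in Dnajb4+/+ livers (-0.26, adjusted p = 0.0432). The remaining probe sets, both at 0.03, read between 6.75 and 10.8 in all 6 arrays and overlapped between genotypes.

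Among the 7 members placed at vesicles and endosomes, 1 was lower and 6 did not pass (median -0.07). Dnajc22, whose counterpart in the fly acts in endocytosis, read 576, 581 and 593 in Dnajb4-/- livers, against 677, 635 and 654 in Dnajb4+/+ livers. The genotypes did not overlap (-0.17, standard error 0.04, a level that fell by 10.9%, adjusted p = 0.0369 by limma), and both probe sets were lower, 1429773_at past the threshold (-0.18, adjusted p = 0.0465) and 1460468_s_at not (-0.15, adjusted p = 0.0784). Dnajc22 did not pass after quantile normalization or after centring on brighter probe sets. Dnajc5, the cysteine string protein of secretory vesicles, was at -0.07 as a gene, with 175, 179 and 180.4 in Dnajb4-/- livers, against 190.0, 189 and 182 in Dnajb4+/+ livers. Of its 5 probe sets, 1448850_a_at passed as lower, with 384, 367 and 394 in Dnajb4-/- livers, against 440.3, 423 and 445 in Dnajb4+/+ livers (-0.19, adjusted p = 0.0455), and the others lay between -0.12 and 0.09.

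Of the 8 class C genes at the ribosome, the spliceosome, histones and the cytosol, 1 was lower and 7 did not pass (median -0.07). Dnajc8, a splicing-associated protein, read 377, 382 and 372 in Dnajb4-/- livers, against 414, 413 and 418 in Dnajb4+/+ livers. The arrays of each genotype were close together and did not overlap (-0.14, standard error 0.04, adjusted p = 0.0425 by limma), and the level fell by 9.12%. Neither probe set passed alone (-0.09 and -0.19), and Dnajc8 did not pass after quantile normalization, after centring on brighter probe sets or in any of the 6 fits that left out 1 array (adjusted p = 0.0878 to 0.121). Dnajc9, a histone chaperone, was at -0.20 and overlapped between genotypes (95% interval -0.44 to 0.04), with 117, 130.4 and 136 in Dnajb4-/- livers, against 137, 136 and 170.3 in Dnajb4+/+ livers. A further class C gene, the endoplasmic reticulum member Dnajc14, had 1 of 3 probe sets lower. Probe set 1426553_at read 140.2, 137 and 146 in Dnajb4-/- livers, against 166, 161 and 166 in Dnajb4+/+ livers (-0.22, adjusted p = 0.0230), and the others were at -0.00 and 0.08. Dnajc14 as a gene was at -0.05, with 209, 205 and 199.9 in Dnajb4-/- livers, against 220.4, 202 and 213 in Dnajb4+/+ livers.

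At the level of single probe sets, 7 of 104 were called higher, 8 lower and 89 neither (14.4% called, beside 13.5% of all probe sets, of which 5.2% were higher and 8.34% lower). They belonged to 12 genes. In 15 genes the probe sets fell on both sides of 0, but no gene had probe sets called both ways. Each probe set was also set against the mean of the others of its gene, a contrast added after seeing the data. None of the 88 DnaJ probe sets with such a contrast passed, beside 4.62% of 25762 in all.

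**Figure D3:**
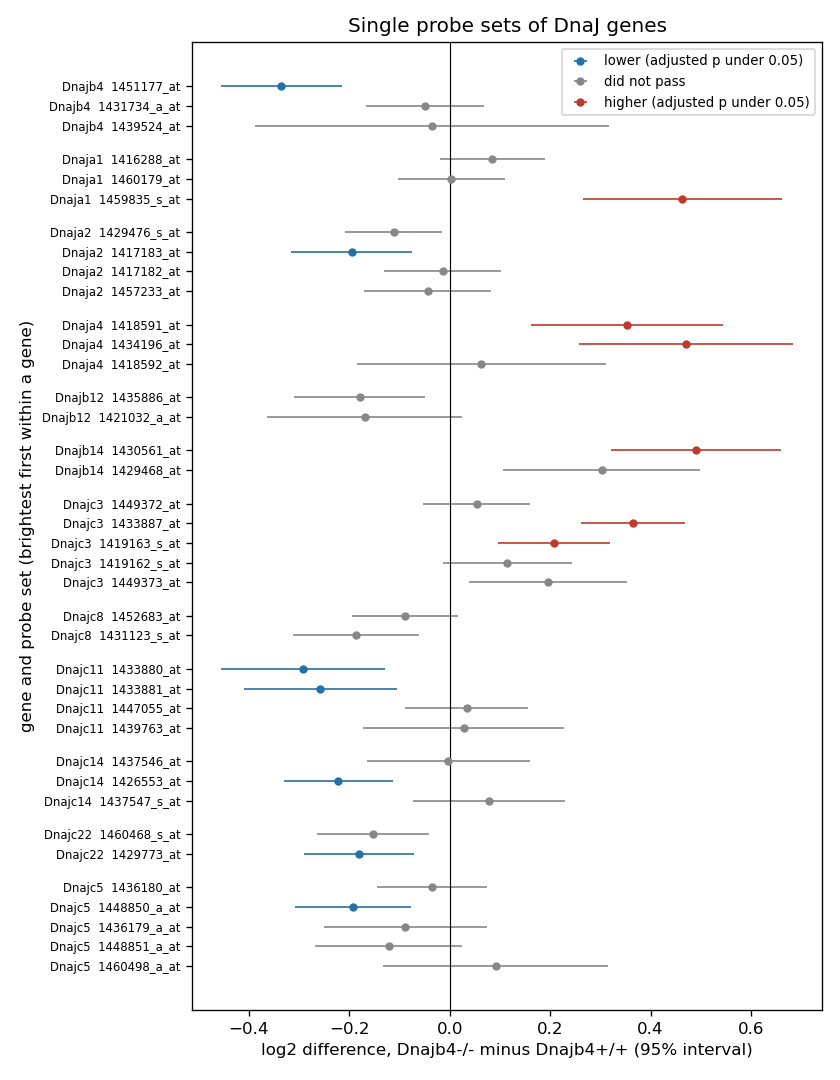
The log2 difference, Dnajb4-/- minus Dnajb4+/+ (x axis), of each probe set of 12 DnaJ genes with 2 or more probe sets (y axis, grouped by gene), with limma's 95% intervals (n = 3 arrays per genotype) and colours by the test over all probe sets. In Dnajb4 only 1451177_at passed, at -0.34, and in Dnaja1 only 1459835_s_at, at 0.46, whereas in Dnajc3 all 5 probe sets lie above 0.

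The calls depended on the arrays that entered the fit. Without Dnajb4+/+ replicate 1 none of the 9 genes passed, with adjusted p-values of 0.0511 to 0.118. Without Dnajb4-/- replicate 1, Dnajb14 and Dnajc3 passed, without Dnajb4-/- replicate 2, Dnajb14 and Dnaja4, and without Dnajb4-/- replicate 3, Dnajb14 and Dnaja1. Without Dnajb4+/+ replicate 2, Dnajb14, Dnajb8, Dnajc15 and Dnajc22 passed, and without Dnajb4+/+ replicate 3 Dnajb14 alone. The adjusted p over these fits was 0.0411 to 0.0731 for Dnaja1, 0.0444 to 0.0878 for Dnajc3, 0.0421 to 0.0865 for Dnajc15, 0.0356 to 0.103 for Dnajb8 and 0.0469 to 0.118 for Dnajc22. Across all genes the share called was 8.53% to 11% in these fits, against 14.7% with 6 arrays. All 9 kept their sign in each, with Dnajb14 at 0.34 to 0.46 and Dnajc8 at -0.15 to -0.13.

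**Figure D4:**
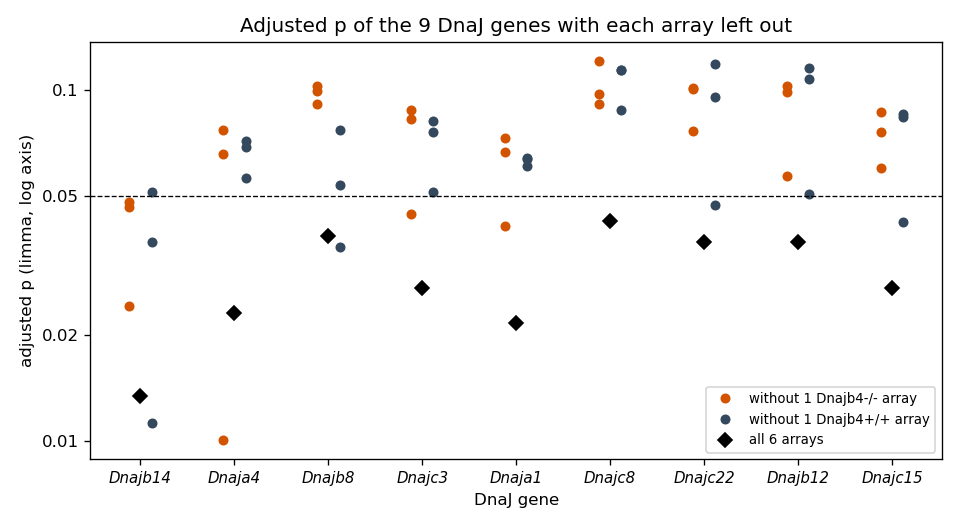
The adjusted p from limma (y axis, log scale) of the 9 DnaJ genes that passed with all 6 arrays (black diamonds), when 1 Dnajb4-/- array (orange) or 1 Dnajb4+/+ array (dark) was left out. The dashed line marks 0.05, below which Dnajb14 lies in 5 of the 6 fits and Dnajb12 and Dnajc8 in none.

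The partners of the DnaJ proteins were read on the same arrays. Of 15 HSP70 and HSP110 genes, 6 were higher, none was lower and 9 did not pass (median 0.08). The inducible HSP70 gene Hspa1b read 946, 966 and 927 in Dnajb4-/- livers, against 479, 467 and 501 in Dnajb4+/+ livers, a 1.96-fold difference without overlap (0.97, standard error 0.04, adjusted p = 2.98e-05 by limma). Its coding sequence is nearly that of Hspa1a, so that probes of one may read the other. Hspa1a was dim, with 16.7, 19.0 and 23.1 in Dnajb4-/- livers, against 11.7, 14.8 and 16.7 in Dnajb4+/+ livers. The genotypes overlapped and Hspa1a did not pass (0.45, adjusted p = 0.111 by limma). Hsph1, an HSP110 nucleotide exchange factor, was at 0.51, and Hyou1, its counterpart in the endoplasmic reticulum, at 0.32. Hspa4l, Hspa5 (BiP, the HSP70 that Dnajc3, Dnajb11 and Dnajb9 serve) and Hspa4 passed as well, at 0.30, 0.28 and 0.15. The constitutive partner of the cytosolic members, Hspa8, was at 0.01 (adjusted p = 0.943), and the mitochondrial HSP70, Hspa9, at -0.02 (adjusted p = 0.738).

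Of 13 nucleotide exchange factors and other HSP70 cofactors, 1 passed as higher and 2 as lower (median -0.05). Grpel2, a mitochondrial nucleotide exchange factor, read 258, 281 and 279 in Dnajb4-/- livers, against 431, 421 and 429 in Dnajb4+/+ livers, without overlap (-0.65, standard error 0.05, adjusted p = 0.000258 by limma). Bag4 was lower too (-0.15), and Stip1, which joins HSP70 to HSP90, was higher (0.27). Of 7 measured heat shock factor targets and small heat shock proteins, Hsp90aa1, the inducible HSP90, was higher (0.35, adjusted p = 0.00163) and 6 did not pass (median -0.03). Of 15 genes of the unfolded protein response, 5 passed as higher and 1 as lower (median 0.12). Xbp1, its transcription factor, and Creld2 were at 0.32 and 0.30, and Ddit3, which encodes the pro-apoptotic factor CHOP, was at -0.45 (adjusted p = 0.00114). Among all genes, 5.09% were higher and 9.57% lower. These shares include dim genes, and with dim genes left out of the fit 35.7% of the remaining genes passed. The partner lists were not counted in that fit. They were thus not shown to be called more often than genes of like signal.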

How the data were processed

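Liver RNA of 3 Dnajb4-/- and 3 Dnajb4+/+ mice was measured on Affymetrix mouse arrays. The authors processed the arrays by GCRMA in GeneSpring with global median centring, and what they deposited is a linear intensity per probe set, whose array medians were 31.8 to 32.5 and whose lowest value was 3.90. Raw signals and detection calls were not used here, so a dim probe set cannot be called absent, and GCRMA can compress differences of dim probe sets. Of 45101 probe sets, 64 were controls, 34945 with a single annotated gene symbol were used, 932 had several symbols and 9160 had none listed. Log2 values were averaged per gene and tested by limma 3.58.1 under R 4.3.3 (lmFit, eBayes, two-sided, Benjamini-Hochberg over all genes or probe sets, threshold 0.05, no filter on dim genes). The procedure was tested on simulated data, with known differences added to the measured gene means and independent noise of the measured spreads. Those data held no sex, tissue or RNA integrity difference, so that test says nothing on the measures that move with the genotype. Plots were made in python 3.11.15 (matplotlib 3.10.9). All 44 members matched RefSeq genes of GRCm38.p6 by identifier. Protein sequences were not analysed here.

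Given in full are Dnajb4, the cytosolic class A genes, the closest class B relatives, and every member called as a gene or with a called probe set, with the largest difference of each role list and up to 3 called genes of each partner list (Hspa1a, Hspa4l, Hspa5, Hspa4, Hspa8, Hspa9, Dnajb11, Dnajb9 and Dnajb6 were added after their values were seen). The closest relatives were named from general knowledge. The members and lists were chosen with earlier results of these data known. The alternatives were another normalization, centring, a filter on dim genes, the methods' t-test, an offset of 16, another variance model, other gene-level values, the replicate number as a block and each array left out. The contrasts between probe sets of a gene were added after seeing the data. The promoter motifs were chosen from general knowledge of heat shock, endoplasmic reticulum stress and sterol response elements.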

Additional observations from a re-analysis of the deposited data

How the results depend on the processing

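With 5 DnaJ genes higher and 4 lower as reported, beside 14.7% of all genes called, the Benjamini-Hochberg adjusted t-test of the methods gave 2 higher (11.2% of all genes called), the brightest probe set alone 3 higher (17.8%), quantile normalization 1 lower (15.7%), centring on brighter probe sets 2 lower (16.4%), specific probe sets 2 lower (11.6%) and the unadjusted t-test 9 lower (27%). The adjusted t-test lost Dnajb14, Dnaja4, Dnajb8 and Dnajb12 and gained Dnajc6. Quantile normalization and centring moved the share of higher genes among all calls to 44.6% and 50.5%, beside 34.7% as reported, and gave 6 members higher each. They put the median of all genes at 0.01 and 0.04. Leaving out 1 array gave 0 to 2 genes higher and 0 to 2 lower, beside 8.53% to 11% of all genes. The reported 7 probe sets higher were 14 with the unadjusted t-test, 3 with the adjusted one, 12 with a trended robust variance and 3 to 4 where leaving out an array moved them by over 1.5 times. The reported 8 probe sets lower were 2 after quantile normalization, 4 after centring, 14 without dim probe sets, 20 with the unadjusted t-test, 5 with the adjusted one, 14 with the offset, 16 with the trended variance and 1 to 3 with an array left out. Dnajb4, at -0.14 and not called, passed with the offset (-0.13), the brightest probe set (-0.34) and the linear mean (-0.27). Reversed in sign, and not called under any of these, were Dnajb1 (0.0016) and Dnajc14 (0.0021) after quantile normalization, Dnajb5 after quantile normalization (0.0029), centring (0.018) and with specific probe sets (0.073), Dnajb5 with an array left out (-0.068 to 0.014) and Dnajb13 with an array left out (-0.028 to 0.17). The causes were not tested.

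With the replicate number as a replicate block, 2 DnaJ genes were higher (Dnaja4 and Dnajb14) and 0 lower, with 4 probe sets higher and 1 lower, and 8.40% of all genes were called. The labels give the number only as a biological replicate and name no pairing. Deviations of same-numbered arrays correlated at -0.02, -0.14 and 0.01, and those of different-numbered arrays at -0.10 to 0.12. With 3 arrays per genotype these correlations cannot show whether arrays were handled in pairs. The 6 arrays limit the precision of every value, the differences of called members are at most 0.40 on the log2 scale, and the sex-linked, muscle, Kupffer cell and RNA integrity measures move with the genotype.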

Other observations

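Dnajc19, a mitochondrial import co-chaperone, was no member because its 3 probe sets also name a pseudogene. They were at -0.01 (1423625_a_at), -0.08 (1425372_at) and -0.13 (1442182_at), and none passed by limma. Of these, 1442182_at read 437, 425 and 435 in Dnajb4-/- livers, against 481, 459.5 and 482 in Dnajb4+/+ livers, without overlap (adjusted p = 0.125).

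DnaJ proteins that carry other symbols went both ways. Sec63, which recruits BiP to the translocon, read 523, 524 and 528 in Dnajb4-/- livers, against 464, 456 and 487 in Dnajb4+/+ livers (0.16, adjusted p = 0.0376 by limma). Hscb, a co-chaperone of iron-sulfur cluster assembly in mitochondria, read 78.8, 91.8 and 99.99 in Dnajb4-/- livers, against 119, 121 and 113 in Dnajb4+/+ livers (-0.39, adjusted p = 0.0271 by limma). The genotypes did not overlap in either gene. Gak, an auxilin of clathrin uncoating, was at -0.06 and did not pass.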
